A study of Rattus norvegicus with 96 samples.

Results

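Small RNA of PFC (prefrontal cortex), VAT (visceral adipose tissue), liver and kidney was sequenced in 12 male Sprague Dawley rats, 9-week-old at tissue collection. Of these, 6 rats had eaten a diet based on whole egg (egg) and 6 one based on casein (CAS, casein), freely for 2 weeks and with the same share of protein. All had earlier been trained to eat within set hours and bled from the tail vein in a feeding test, and at the end were fasted overnight, anesthetized with ketamine and xylazine, and bled by heart puncture before the organs were taken. Whether organs were perfused is not given in the sources used here. Each rat gave 1 library per tissue, so there were 48 small RNA libraries, and diets were read from the headings of the count columns because the sample labels do not state them.

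The miRNAs described here are those that mark red blood cells (miR-486, miR-451 and miR-144) and vessel endothelium (miR-126a). They were chosen by name, from rows of the 4 raw miRNA count tables that begin with rno-miR-486, rno-miR-451, rno-miR-144 or rno-miR-126a. The rule found 3 miRNAs. These were rno-miR-486, listed for PFC, VAT and liver, and both arms of the miR-126a hairpin, rno-miR-126a-3p and rno-miR-126a-5p, listed for all 4 tissues. Names beginning rno-miR-451 gave 0 rows and names beginning rno-miR-144 gave 0 rows. They are 3 of the 91 miRNAs listed for PFC, 3 of 64 for VAT, 3 of 52 for liver and 2 of 58 for kidney. Each listed miRNA was above 0 in at least 10 of the 12 libraries of its table, and the smallest count above 0 in a library was between 12 and 343, so the tables hold only miRNAs above a minimum. A miRNA that is unlisted, or listed at 0 in a library, is therefore not shown to be absent.

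A miRNA is a short RNA that guides Argonaute proteins to messenger RNAs, mainly by pairing of its seed, which runs from base 2 to base 8. miR-486 is processed from an intron of the ankyrin 1 gene and is abundant in red blood cells, as are miR-451 and miR-144, which are transcribed together under the erythroid factor GATA1. miR-486 is also made in skeletal and heart muscle. miR-126 lies in an intron of Egfl7, a gene of endothelial cells. In mice its 3p arm promotes signalling by vascular endothelial growth factor through repression of Spred1, and its 5p arm represses Dlk1. In bulk tissue, fewer cells of a type and less RNA per cell cannot be told apart.

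The mature miR-126a arms are shown because the results turn on both of them and on their ratio. The sequences are from RefSeq (GRCr8), with the seed in capitals.
rno-miR-126a-5p: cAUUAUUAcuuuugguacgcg
rno-miR-126a-3p: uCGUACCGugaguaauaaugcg
The 5p arm (21 bases) lies at chr3:29813182-29813202 and the 3p arm (22 bases) at chr3:29813219-29813240, both on the plus strand and inside the interval of Egfl7. Of the 693 rat mature miRNA names in the same table, 0 others share the seed of the 5p arm and 0 others share that of the 3p arm. Another mature miRNA, rno-miR-126b, is annotated on the opposite strand and overlaps 17 bases of the 5p arm, and it is not listed in the tables.

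The total miRNA count per library was 294445 to 2093706 in PFC, 44390 to 1536300 in VAT, 845543 to 1870868 in liver and 187169 to 1345947 in kidney. Some tissue markers set the PFC, liver and kidney tables apart. miR-9a-5p, a neural miRNA, held 9.60 to 29.4% of PFC counts, and miR-122-5p, made by hepatocytes, held 22.6 to 46.8% of liver counts. miR-196b-5p, listed for kidney alone, held 0.0785 to 0.649% of kidney counts. The kidney markers miR-10a-5p and miR-30a-5p were also highest by median in kidney, at 17.3% and 7.42%. Other markers went the other way. miR-204-5p, of kidney, had a median of 0.0596% in kidney and 0.203% in PFC. The 1 fat marker listed, miR-378a-3p, had a median of 0.883% in VAT and 1.22% in kidney, so no fat marker set VAT apart. miR-192-5p, of kidney and gut epithelium and also of liver, held 2.35 to 5.65% of kidney counts and 8.82 to 15.5% of liver counts. The PFC library of rat 9 (casein) stood apart, with 9.60% miR-9a-5p and 13.8% miR-10b-5p, against at most 2.11% miR-10b-5p in the other PFC libraries. Its brain markers went both ways. miR-9a-5p, miR-128-3p (0.418%) and miR-132-3p (0.0687%) were the lowest of the PFC libraries. miR-153-3p (0.682%, at most 0.0747% in the others) and miR-338-3p (0.209%, at most 0.0518% in the others) were the highest. The VAT library of rat 12 (egg) had the lowest depth of all, 44390 counts, and held 1.82% miR-9a-5p, 1.67% miR-122-5p and 1.19% miR-192-5p, the highest shares of these miRNAs in VAT. The kidney libraries held up to 4.45% miR-122-5p.

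Taken as shares of all listed counts, miR-486 was the most abundant of the 3 miRNAs by median in each of the 3 tissues that list it. Its median share was 0.156% in PFC (54th of 91 miRNAs), 0.520% in VAT (17th of 64) and 0.657% in liver (14th of 52). In liver that median lies between 2 sets of rats, described below, where no library falls. In the 6 rats of liver count columns 1 to 6 the median of miR-486 was 0.0795%, below 0.135% for miR-126a-3p. In the 6 rats of columns 7 to 12 it was 1.94%, against 0.122%. For miR-126a-3p the median share was 0.0480% in PFC, 0.0726% in kidney, 0.122% in liver and 0.176% in VAT. For miR-126a-5p it was 0.0298% in kidney, 0.0357% in PFC, 0.0569% in liver and 0.0582% in VAT. The endothelial miRNA was thus highest by median in fat, and miR-486 had a spread between rats that differed widely by tissue. Across the 12 rats the highest share of miR-486 was 5.39 times the lowest in PFC, 13.9 times in VAT and 582 times in liver, whereas for miR-126a-3p it was 3.74 times in PFC, 2.94 times in VAT, 1.84 times in liver and 2.36 times in kidney.

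**Figure D1:**
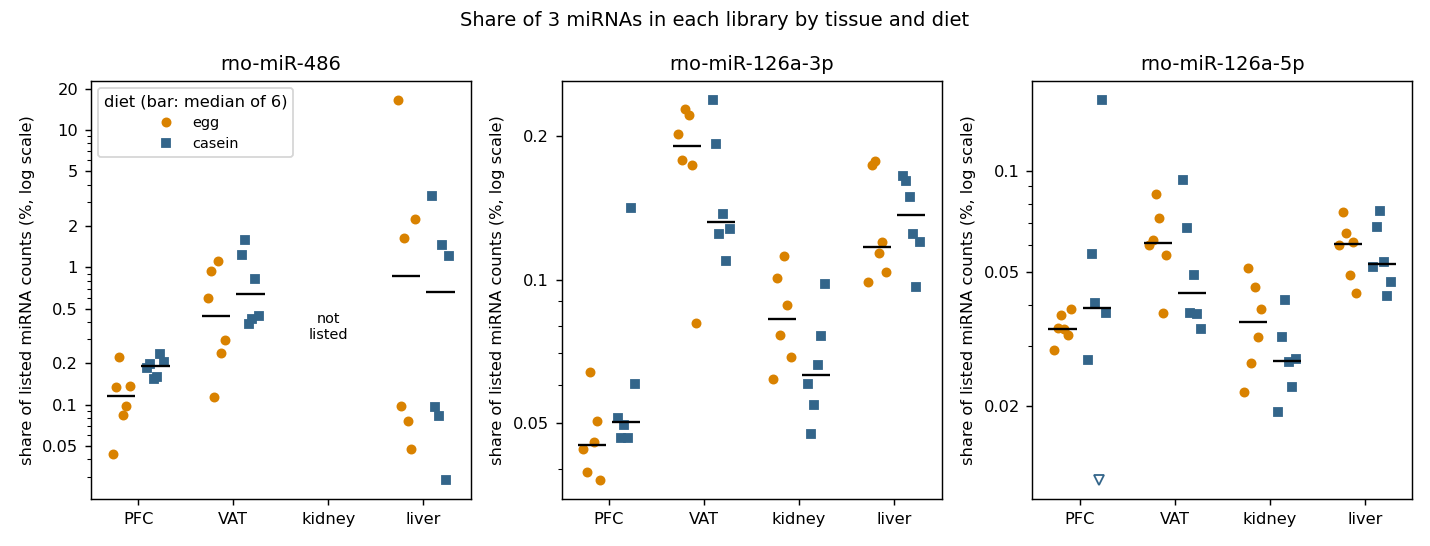
Share of all listed miRNA counts (percent, log scale) held by rno-miR-486, rno-miR-126a-3p and rno-miR-126a-5p in each library, by tissue, with egg left of casein. Points are rats and bars are medians of 6, and the open triangle is the PFC library of rat 7, in which miR-126a-5p is listed at 0. Liver miR-486 falls into an upper and a lower set of 6 rats, each with 3 egg and 3 casein rats.

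Liver miR-486 took values in 2 separate ranges that did not follow diet. On egg its share of liver counts was 16.5% in rat 2, 2.23% in rat 12, 1.65% in rat 5, 0.0973% in rat 4, 0.0765% in rat 8 and 0.0479% in rat 10. On casein it was 3.32% in rat 1, 1.45% in rat 7, 1.22% in rat 11, 0.0960% in rat 3, 0.0825% in rat 6 and 0.0284% in rat 9. Rats 1, 2, 5, 7, 11 and 12 were therefore all at 1.22% or more, rats 3, 4, 6, 8, 9 and 10 were all at 0.0973% or less, and each set held 3 egg and 3 casein rats. The lowest of the upper set was 12.5 times the highest of the lower set.

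Counting error was small beside this gap. The exact (Clopper-Pearson) 95% interval was 16.5 to 16.6% for rat 2 (142454 of 861704 counts) and 0.0249 to 0.0322% for rat 9 (240 of 845543 counts). Reads carry no molecular identifiers in the sources used here, so these intervals cover counting error only.

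The 2 sets match the order of the count columns. The 6 rats with high liver miR-486 fill columns 7 to 12 of the liver table and the 6 with low values fill columns 1 to 6. No source used here says what that order stands for. Of all listed miRNAs, the shares of the 2 sets of rats did not overlap for 30.8% of the liver table (16 of 52), 50% of the kidney table (29 of 58), 1.1% of the PFC table (1 of 91) and 0% of the VAT table (0 of 64). In liver, the widest gap after that of miR-486 was of miR-99a-5p, in the other direction, at 0 to 0.0479% in rats of columns 7 to 12 and 0.528 to 0.793% in rats of columns 1 to 6. Next came miR-101a-3p, at 0.116 to 0.247% against 0.0230 to 0.0348%, which was higher in the same rats as miR-486. Both were named after their values were seen. In the kidney table the 6 rats with high liver miR-486 fill columns 4 to 9, and the other 6 fill columns 1 to 3 and 10 to 12. In the PFC and VAT tables neither set fills 1 such block. The part of column order in the miR-486 values was not tested, and the animal numbers and diets are spread over both sets.

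Of the other blood-enriched miRNAs listed for liver, none separated the 2 sets, and miR-25-3p came nearest to doing so. It held 0.124 to 0.292% of liver counts in rats of columns 7 to 12, with its highest value in rat 2, against 0.0532 to 0.133% in rats of columns 1 to 6. miR-92a-3p held 0.0430 to 0.225%, against 0.0499 to 0.172%. The liver share of miR-16-5p was 0.162 to 0.246% in rats of columns 7 to 12, against 0.101 to 0.217% in rats of columns 1 to 6, so the sets overlapped for all 3. The endothelial arms also overlapped. miR-126a-3p held 0.0990 to 0.177% of liver counts in rats of columns 7 to 12, against 0.0964 to 0.174% in rats of columns 1 to 6, and miR-126a-5p held 0.0433 to 0.0652%, against 0.0423 to 0.0761%. Rat 2, with the highest miR-486 share, had 0.0990% miR-126a-3p in liver, the lowest value on egg. Its miR-486 took 16.5% of the counts, which lowers each other share of that library, so this rank is not independent of miR-486.

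**Figure D2:**
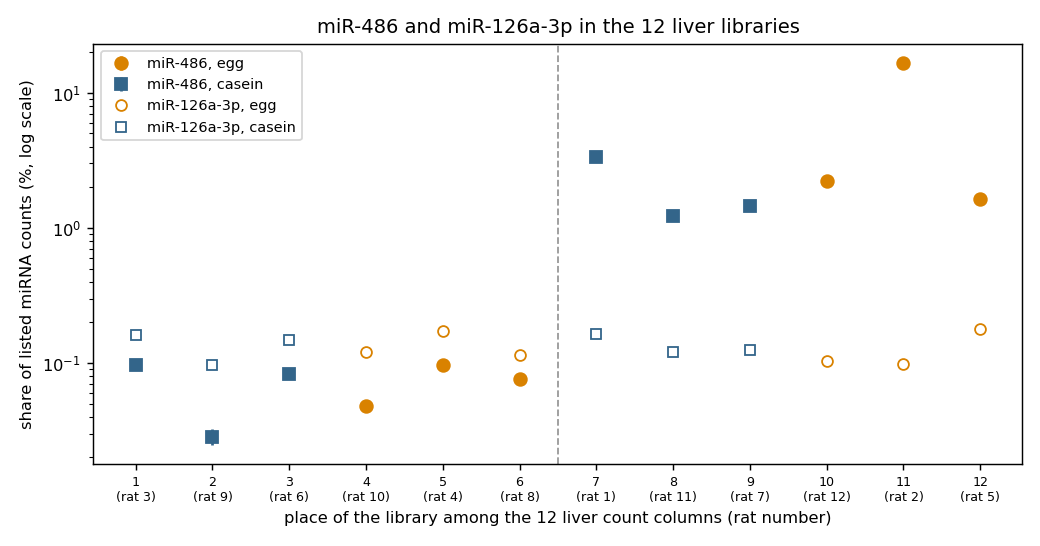
Share of liver miRNA counts (percent, log scale) against the place of each library among the 12 liver count columns, with filled points for miR-486, whose exact 95% interval is within or about the size of the point, and open points for miR-126a-3p (circles egg, squares casein). miR-486 lies between 1.22 and 16.5% to the right of the dashed line and between 0.0284 and 0.0973% to its left, while miR-126a-3p overlaps between both sides.

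The same rats did not form 2 sets in the other tissues for miR-486. In PFC its share was 0.0436 to 0.222% in rats of columns 7 to 12 of the liver table and 0.0849 to 0.235% in rats of columns 1 to 6. In VAT it was 0.114 to 1.24%, against 0.237 to 1.59%. Rat 2, at 16.5% in liver, was the lowest of all rats in PFC (0.0436%) and had 0.595% in VAT.

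Lists of cell markers gave little more on blood. Of the 4 red cell miRNAs looked for (miR-486, miR-451-5p, miR-144-3p and miR-144-5p), 1 is listed in PFC, VAT and liver and 0 in kidney. Of 7 white cell miRNAs, miR-146b-5p is listed in each table and miR-146a-5p in VAT, liver and kidney, whereas the defining miR-223-3p, miR-142-3p and miR-150-5p are not listed. Their summed share was 0.857 to 3.17% in PFC, 0.307 to 1.09% in VAT, 0.166 to 0.469% in liver and 0.192 to 0.330% in kidney. Of 6 miRNAs of vessel smooth muscle and stroma, 2 are listed in VAT (miR-145-5p and miR-199a-3p), 2 in kidney, 1 in liver and 0 in PFC, with a summed share of 0.105 to 0.652% in VAT, 0.0811 to 0.249% in kidney and 0.0109 to 0.0779% in liver. Of 8 other blood-enriched miRNAs, 3 to 5 are listed in each table. In kidney, where 50% of all miRNAs separated the 2 sets of rats, miR-25-3p and miR-93-5p were among them. miR-25-3p held 0.260 to 0.336% in rats of columns 7 to 12 of the liver table, against 0.0638 to 0.166% in the others. miR-93-5p held 0.0622 to 0.121%, against 0.0298 to 0.0578%. The sets overlapped in kidney for miR-16-5p, miR-92a-3p and miR-107-3p.

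To compare levels between tissues, counts of the 39 miRNAs listed in all 4 tables were fitted with edgeR's quasi-likelihood test over 48 libraries, each scaled by the total of its table. A fold change here is a ratio of shares, and adjusted p is by Benjamini-Hochberg over the miRNAs of a contrast. Most miRNAs passed an adjusted p of 0.05, so a call by itself says little about these members: 74.4% of the 39 did for PFC over VAT, 79.5% for PFC over liver, 69.2% for PFC over kidney, 64.1% for VAT over liver, 64.1% for VAT over kidney and 82.1% for kidney over liver.

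miR-126a-3p was lower in PFC and in kidney than in liver or VAT, and lower in PFC than in kidney except when scaled by the total of the shared miRNAs, which turned that sign. Its share averaged 0.0564 ± 0.0279% in PFC, 0.0759 ± 0.0200% in kidney, 0.134 ± 0.0299% in liver and 0.168 ± 0.0513% in VAT (SD, n = 12 each). The log2 fold change of PFC over VAT was -1.58 (SE 0.195, adjusted p = 3.8e-10 by edgeR), and PFC was the higher in 1 of 12 rats, which was rat 9. PFC over liver was -1.25 (SE 0.193, adjusted p = 8.4e-08), again with PFC higher in 1 rat. VAT over kidney was 1.15 (SE 0.193, adjusted p = 1.1e-06), higher in 12 of 12 rats, and kidney over liver was -0.82 (SE 0.191, adjusted p = 1.6e-04), lower in all 12 rats. These 4 calls kept their direction under each scaling tried.

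The 2 nearest pairs of levels were less certain. PFC over kidney was -0.43 for miR-126a-3p (SE 0.191, adjusted p = 0.041), and it was 0.21 when scaled by the total of the shared miRNAs alone (adjusted p = 0.26) and lost its call without any 1 of 7 rats (2, 4, 7, 8, 10, 11 or 12). VAT over liver was 0.33 (SE 0.190, adjusted p = 0.13), and 0.40 with adjusted p = 0.029 when the PFC library of rat 9 and the VAT library of rat 12 were left out. The order from low to high was thus PFC, kidney, liver and VAT, in which neither PFC and kidney nor liver and VAT differed firmly.

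miR-126a-5p was lower in kidney than in VAT and liver. Its share averaged 0.0322 ± 0.0100% in kidney, 0.0442 ± 0.0395% in PFC, 0.0577 ± 0.0118% in liver and 0.0578 ± 0.0198% in VAT (SD, n = 12 each). VAT over kidney was 0.85 on the log2 scale (SE 0.320, adjusted p = 0.017), with VAT higher in 11 of 12 rats. That call was lost without rat 1 (0.71, adjusted p = 0.063) or rat 5 (0.77, adjusted p = 0.051). Kidney over liver was -0.85 (SE 0.319, adjusted p = 0.015), with kidney lower in 12 of 12 rats. VAT over liver was 0.0034 (SE 0.316, adjusted p = 0.99).

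In PFC the 5p arm was set by a pair of libraries. It was listed at 0 in rat 7, whose PFC library had the lowest total for that tissue (294445) and 16 of 91 miRNAs at 0, and it held 0.163% in rat 9. The other 10 rats had 0.0273 to 0.0566%. PFC over VAT was -0.39 (SE 0.317, adjusted p = 0.27) and PFC over liver -0.38 (SE 0.316, adjusted p = 0.26). Without the PFC library of rat 9 and the VAT library of rat 12 these were -0.79 (adjusted p = 0.011) and -0.78 (adjusted p = 0.010), and scaled by the total of the shared miRNAs they were 0.19 (adjusted p = 0.57) and 0.21 (adjusted p = 0.52). PFC over kidney was 0.46 (SE 0.318, adjusted p = 0.20).

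miR-486 needed a separate fit, since the kidney table does not list it. Over the 41 miRNAs listed in PFC, VAT and liver, 73.2% passed for PFC over VAT, 78% for PFC over liver and 63.4% for VAT over liver. The share of miR-486 averaged 0.155 ± 0.0585% in PFC, 0.685 ± 0.458% in VAT and 2.24 ± 4.63% in liver (SD, n = 12 each). PFC over VAT was -2.15 on the log2 scale (SE 0.724, adjusted p = 0.0074), with PFC lower in 11 of 12 rats. PFC over liver was -3.85 (SE 0.778, adjusted p = 3.1e-05) and VAT over liver -1.71 (SE 0.713, adjusted p = 0.036). With the rat as a block, VAT over liver was -0.29 (adjusted p = 0.86) and PFC over liver -2.31 (adjusted p = 0.022).

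The contrasts of miR-486 with liver are averages over the 2 sets of rats, which went opposite ways. In rats of columns 7 to 12 the PFC share was below the liver share in 6 of 6 rats, and the median rat had 12.8 times as much in liver. In rats of columns 1 to 6 it was above the liver share in 6 of 6, at a median of 1.95 times. VAT was likewise below liver in 6 of 6 rats of columns 7 to 12 (liver 5.51 times as high in the median rat) and above it in 6 of 6 rats of columns 1 to 6 (VAT 12.2 times as high). Without rat 2, VAT over liver was -0.43 on the log2 scale (adjusted p = 0.61) and PFC over liver -2.51 (adjusted p = 0.00063). VAT over liver also lost its call without any 1 of rats 1, 5, 7, 11 and 12, with adjusted p up to 0.078. The level of miR-486 in liver thus has no single place in the order of tissues, while PFC was below VAT in both sets, in 5 of 6 and 6 of 6 rats.

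**Figure D3:**
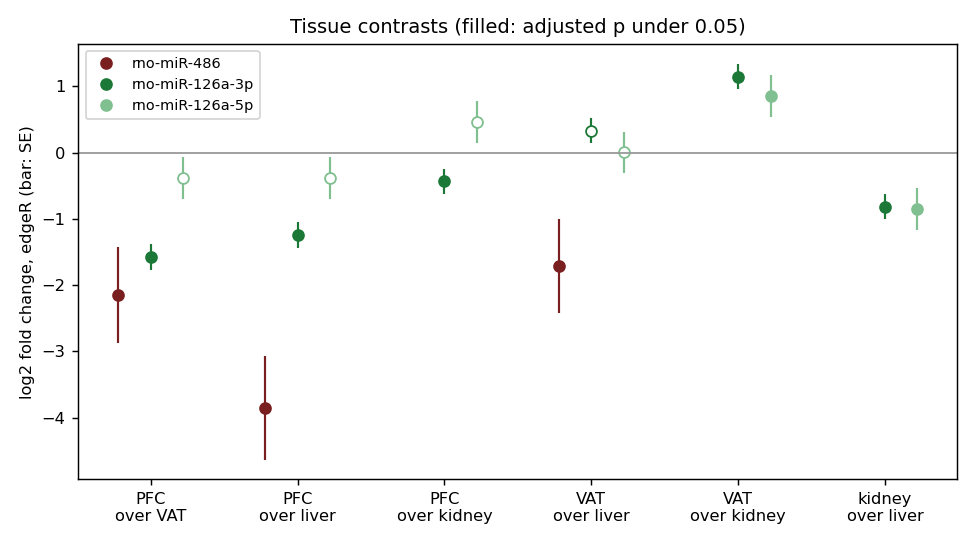
Log2 fold change of each pair of tissues (first over second) for miR-486, miR-126a-3p and miR-126a-5p, with bars of 1 SE from the edgeR fits. Filled points have an adjusted p under 0.05, and miR-486 has no kidney contrast. miR-126a-3p lies below 0 in the 3 PFC contrasts (PFC over kidney was 0.21 on the total of the shared miRNAs), and the miR-486 points with liver average 2 sets of rats with opposite signs.

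The ratio of the miR-126a arms had its lowest median in PFC, a difference that passed the test without rat 7 but not with it. The count of the 3p arm divided by that of the 5p arm had a median of 1.35 in PFC (0.821 to 1.87, 11 rats), 2.61 in kidney (1.32 to 3.57), 2.33 in liver (1.64 to 3.18) and 2.89 in VAT (1.44 to 4.61). The lowest VAT ratio was that of rat 12, from 36 and 25 counts. The 3p arm was the more abundant in 36 of 36 libraries of the other tissues and in 8 of 11 PFC libraries with both arms above 0.

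By a two-sided exact sign-flip test over the 12 rats, with 0.5 added to each count, no PFC difference of the log2 ratio passed. The test cannot decide this, because the listed 0 of rat 7 entered as 0.5 and gave a spread of 2.27 (SD). The smallest count above 0 in that library was 74. The log2 difference was -0.54 for PFC minus VAT (exact adjusted p = 0.92 over 6 pairs). Leaving out rat 7, a choice made after its value was seen, gave -1.19 ± 0.466 for PFC minus VAT, -0.84 ± 0.431 for PFC minus liver and -0.89 ± 0.430 for PFC minus kidney (SD, n = 11). PFC was lower in 11 of 11 rats in each, and each exact adjusted p was 0.0020, from the smallest p that 11 rats allow. VAT minus liver was 0.34 ± 0.544 (SD, n = 12, exact adjusted p = 0.23), VAT minus kidney 0.29 ± 0.515 (exact adjusted p = 0.23) and kidney minus liver 0.047 ± 0.466 (exact adjusted p = 0.92).

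**Figure D4:**
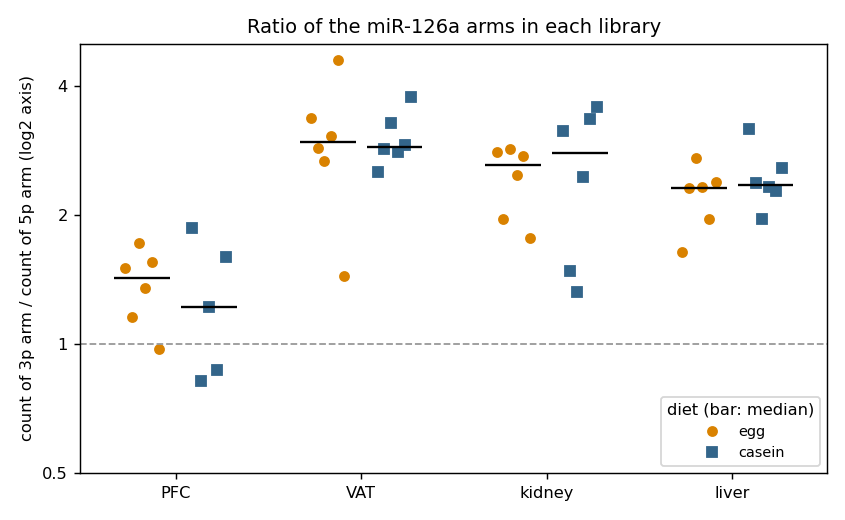
Count of rno-miR-126a-3p divided by the count of rno-miR-126a-5p in each library (log2 axis), with egg left of casein and bars at the medians. The PFC libraries, without rat 7, lie between 0.821 and 1.87, and the medians of VAT, kidney and liver lie above 2.

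The study asked first whether whole egg changes gene expression in these tissues, and further whether changes of miRNAs could lie upstream of it. No member passed an adjusted p of 0.05 by edgeR in any table, nor did any other miRNA. The share called was 0% in PFC (0 of 91), 0% in VAT (0 of 64), 0% in liver (0 of 52) and 0% in kidney (0 of 58), and DESeq2 also called 0 in each table. At an unadjusted p under 0.05, 3.3% of PFC, 6.25% of VAT, 3.85% of liver and 1.72% of kidney miRNAs passed, and miR-486 in PFC was the single member among them.

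In PFC miR-486 had a lowest, median and highest share of 0.0436, 0.116 and 0.222% on egg, against 0.153, 0.192 and 0.235% on casein. All egg rats but rat 5 were below the lowest casein rat. The log2 fold change of egg over casein was -0.65 (SE 0.296, unadjusted p = 0.046, adjusted p = 0.59 by edgeR). Leaving out each rat in turn gave -0.70 to -0.43, with an unadjusted p under 0.05 in 2 of the 12 fits. With 3 of 91 PFC miRNAs at this threshold, the difference is not set apart from the background. The log2 ratio of the egg to the casein mean was -0.45 in rats of columns 7 to 12 and -0.89 in rats of columns 1 to 6 (n = 3 each, no test).

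In VAT miR-486 had 0.114, 0.445 and 1.12% on egg (lowest, median and highest), against 0.386, 0.636 and 1.59% on casein. The groups overlapped, and the log2 fold change was -0.81 (SE 0.576, adjusted p = 0.71). It was -0.49 without rat 5 and -1.29 without rat 8, where the unadjusted p was 0.038 and the adjusted p 0.35. In liver its median was 0.873% on egg and 0.657% on casein, each in the gap between the 2 sets of rats, where no library falls. The log2 fold change was 1.78 (SE 1.47, adjusted p = 0.83 by edgeR). That value rested on rat 2 and was -0.22 without it. Within rats of columns 7 to 12 the liver share was 6.80 ± 8.43% on egg and 2.00 ± 1.15% on casein, and within rats of columns 1 to 6 it was 0.0739 ± 0.0248% on egg and 0.0690 ± 0.0358% on casein (SD, n = 3 each). With a term for the 2 sets of columns, the log2 fold change in liver was 0.94.

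For miR-126a-3p the lowest, median and highest shares in PFC were 0.0379, 0.0448 and 0.0640% on egg, against 0.0465, 0.0503 and 0.142% on casein. In VAT they were 0.0811, 0.191 and 0.228% on egg, against 0.109, 0.132 and 0.238% on casein. In liver they were 0.0990, 0.117 and 0.177% on egg, against 0.0964, 0.137 and 0.165% on casein. In kidney they were 0.0619, 0.0824 and 0.112% on egg, against 0.0474, 0.0631 and 0.0981% on casein. The groups overlapped in each tissue, with 5 of 6 egg rats above the casein median in VAT and in kidney. In kidney, where 50% of miRNAs separated by column set, the egg rats had 0.0619 to 0.0766% and the casein rats 0.0602 to 0.0981% in rats of columns 7 to 12, with a log2 ratio of means of -0.11. In rats of columns 1 to 6 the egg rats had 0.0882 to 0.112% and the casein rats 0.0474 to 0.0763%, which did not overlap, with a log2 ratio of means of 0.76 (n = 3 each, no test). Leaving out each rat gave 0.089 to 0.39 in kidney. The log2 fold changes were -0.43 (SE 0.390) in PFC, -0.018 (SE 0.274) in VAT, -0.12 (SE 0.164) in liver and 0.24 (SE 0.297) in kidney, and the sign in VAT and liver depended on the scaling. Without rat 9, the PFC value was -0.074.

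For miR-126a-5p the log2 fold change was -0.60 (SE 0.852) in PFC, -0.036 (SE 0.293) in VAT, -0.020 (SE 0.182) in liver and 0.19 (SE 0.416) in kidney, with an adjusted p of 0.949 or more by edgeR in each. Its medians were 0.0339% on egg and 0.0391% on casein in PFC, 0.0611% and 0.0434% in VAT, 0.0608% and 0.0527% in liver, and 0.0355% and 0.0272% in kidney. The PFC value was 0.12 without rat 9 and -0.86 without rat 7, listed at 0 (unadjusted p = 0.080, adjusted p = 0.47 by edgeR). All 6 egg rats were below the casein median in PFC. There the egg rats of columns 1 to 6 had 0.0325 to 0.0341% and the casein rats 0.0405 to 0.163%, which did not overlap. In rats of columns 7 to 12 they had 0.0292 to 0.0389% and 0 to 0.0377%, which overlapped (n = 3 each, no test). No difference of either arm was detectable at this depth and number of rats.

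No difference of the diet effect between tissues passed the test. In the test of the interaction of diet and tissue, the smallest adjusted p was 0.54 for the miR-126a arms over 6 pairs of tissues and 0.54 for miR-486 over 3 pairs. Ratios between members were compared by a two-sided exact permutation test over all splits of 12 rats into 6 and 6. The smallest p of the 10 ratios was 0.089, for miR-486 to miR-126a-5p in VAT, with a log2 difference of egg minus casein of -1.05 (adjusted p = 0.70).

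Across rats, the arms of miR-126a varied together, though not firmly. On log2 CPM, the TMM-scaled share of counts,, Pearson's r between them was 0.63 in VAT (permutation p = 0.025), 0.64 in kidney (p = 0.028), 0.55 in liver (p = 0.062) and 0.39 in PFC (p = 0.11), over 12 rats each and 100000 permutations. Spearman's rho was 0.78 in VAT (permutation p = 0.0038), 0.68 in kidney (p = 0.018), 0.80 in liver (p = 0.0028) and 0.24 in PFC (p = 0.45). Over the 12 relations within tables, the adjusted p of r was 0.15 in VAT, kidney and liver, and that of rho was 0.023 in VAT and in liver and 0.071 in kidney. The rho calls were lost when each diet was centred on its mean (adjusted permutation p = 0.072 in VAT and in liver). They were also lost in both tissues without rat 8 (0.058 each) and in VAT without rat 1 (0.057). Scaled by library totals without TMM, the rho in liver was 0.70 and not called (adjusted permutation p = 0.05), while VAT kept its call. At that scaling the r in kidney was 0.37. Without the 2 rats farthest from the median of miR-126a-3p, r was 0.81 in VAT, 0.53 in kidney, 0.63 in liver and 0.28 in PFC. The PFC value turned on single libraries. There r was 0.81 without rat 7, whose miR-126a-5p is listed at 0 (permutation p = 0.057, adjusted p = 0.15), with a rho of 0.21. Without rat 9 the PFC r was 0.18.

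Within the 2 sets of rats the relation was weaker in kidney and in one of the liver sets, and not in VAT. In kidney r was 0.35 in rats of columns 7 to 12 and 0.042 in rats of columns 1 to 6, in liver it was 0.16 and 0.77, and in VAT 0.65 and 0.76 (n = 6 each). The exact permutation p of these 6 values was 0.072 or more. Kidney's relation across 12 rats thus did not hold within the sets.

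No relation of miR-486 with a miR-126a arm passed the adjustment over 12 rats, and a few did under other settings. With miR-126a-3p, r was 0.34 in PFC (permutation p = 0.26) and 0.40 in VAT (p = 0.20), and with miR-126a-5p it was 0.063 in PFC (p = 0.87) and 0.38 in VAT (p = 0.22). In VAT these were 0.69 and 0.77 without rats 5 and 3, the farthest from the median of miR-486, with adjusted permutation p = 0.060 and 0.036. In PFC they were 0.58 and 0.21 without rats 2 and 10. The PFC r with miR-126a-5p was 0.38 without rat 7, where that arm is listed at 0 (permutation p = 0.21). The corresponding Spearman's rho over 12 rats was 0.52 and 0.36 for miR-126a-3p and 0.26 and 0.52 for miR-126a-5p, each with an adjusted permutation p of 0.21 or more. In VAT the rho with miR-126a-5p turned on rat 5. It was 0.83 without rat 5 alone (adjusted permutation p = 0.0099) and 0.84 without rats 5 and 3 (adjusted permutation p = 0.021). Without any other single rat it was 0.45 to 0.54, and it was 0.45 when each diet was centred on its mean. In PFC the rho with miR-126a-3p was 0.75 when scaled by library totals without TMM (adjusted permutation p = 0.043). It was 0.78 without rats 2 and 10 (adjusted permutation p = 0.021), but 0.084 when each diet was centred on its mean (permutation p = 0.80). Without rat 9 that rho was 0.37 and r was 0.060. Within rats of columns 7 to 12 and of columns 1 to 6, r with miR-126a-3p was 0.026 and 0.59 in PFC and 0.27 and 0.44 in VAT, and with miR-126a-5p it was -0.074 and 0.80 in PFC and 0.15 and 0.90 in VAT (n = 6 each). The exact permutation p, with no adjustment, was 0.0097 for the 0.80 and 0.025 for the 0.90. The -0.074 includes the listed 0 of rat 7. In liver, where miR-486 forms 2 sets, r with miR-126a-3p was -0.82 in rats of columns 7 to 12 (exact permutation p = 0.039, n = 6) and 0.83 in rats of columns 1 to 6 (exact permutation p = 0.054, n = 6), with an adjusted p of 0.15 for each. Scaled by library totals without TMM, the first was -0.40 and the second 0.87.

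No relation of a member between tissues passed the adjustment. For miR-486, r between PFC and VAT was 0.070 and rho 0.12 (permutation p = 0.83 and 0.72, n = 12). For miR-126a-3p, r was between -0.037 and 0.29 in the 6 pairs of tissues. For miR-126a-5p the largest was between liver and kidney, with r = 0.73 and rho = 0.71 (permutation p = 0.0057 and 0.013), and adjusted p = 0.097 and 0.22 over the 17 relations between tables. Within the sets that r was 0.17 and 0.59 (exact permutation p = 0.73 and 0.21, n = 6 each), and without the 2 rats farthest from the median (1 and 6) it was 0.49. Scaled by library totals without TMM, it was 0.36. For miR-486 between PFC and liver, r was -0.95 in rats of columns 7 to 12 and -0.14 in rats of columns 1 to 6 (exact permutation p = 0.026 and 0.80, n = 6 each), with an adjusted p of 0.22 and 0.92.

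As a description with no test, the miRNAs most like these members across the 12 rats of a table were listed by Pearson's r. With miR-486 they were miR-320-3p (0.70) in PFC, miR-92a-3p (0.59), another blood-enriched miRNA, in VAT, and miR-101a-3p (0.90), miR-30a-3p (0.87) and miR-140-3p (0.85) in liver. The 3 liver miRNAs are all among the 16, miR-486 included, whose shares separated the 2 sets of rats. Over 12 rats, r with miR-486 favours miRNAs with that split, so this overlap is not a separate observation. With the mean of the miR-126a arms they were miR-195-5p (0.72) in VAT, miR-194-5p (0.72) in liver and miR-30d-5p (0.90) in kidney. In PFC they were miR-153-3p (0.99) and miR-488-3p (0.98), which are also listed at 0 in rat 7. Without rat 7 these were 0.96 and 0.90, and without rats 7 and 9 they were 0.52 and -0.13, so they rest on these libraries. Rat 9 held 0.682% miR-153-3p, against at most 0.0747% in the other PFC libraries. Over all 48 libraries miR-148a-3p came nearest to miR-126a-3p (0.79) and to miR-126a-5p (0.46), and over the 36 libraries of PFC, VAT and liver miR-25-3p came nearest to miR-486 (0.64). These points share libraries, depths and tissues.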

How the data were processed

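Counts of mature miRNAs, 1 deposited table per tissue, came from smallrnaseq, which the authors ran (Bowtie, RNAcentral references) on reads trimmed by BBDUK. The version of Bowtie is not given in the sources used here. Each of the 48 columns was tied to a sample by tissue and animal number, with 0 columns left over. The mRNA tables and the authors' own egg against casein tables, which hold fold changes and p-values, were not used. The range of total counts per library is given above.

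Diet was tested by edgeR 4.0.16 (robust quasi-likelihood, TMM; R 4.3.3, limma 3.58.1) on miRNAs reaching 10 counts in 6 or more of the 12 libraries, with Benjamini-Hochberg adjustment over a table. Tissues were compared on library totals without TMM and with no rat term. Correlations used log2 CPM computed from the deposited counts, with a prior count of 2. Alternatives were DESeq2 1.42.0 and its size factors, other scalings and count filters, a block for the rat, and fits lacking 1 rat. The fit that holds miR-486, the column term, the arm ratio tests and the fits lacking libraries that stand apart were chosen after seeing the data. The code was tested on simulated data.

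The labels give the rat of each library, so equal animal numbers mark the same rat. As a check of pairing, deviations from the tissue mean over 39 miRNAs were correlated for the same rat, and the median over rats was lowest for PFC with VAT (-0.064) and highest for liver with kidney (0.39). No library copied another (smallest chi-square over its degrees of freedom, 31.6). All members are named, with up to 3 miRNAs most like them. The members and lists were chosen with earlier results of these data known.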

Additional observations from a re-analysis of the deposited data

Results flagged for a closer look

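Of 22 groups of 6 libraries, each a miRNA, tissue and diet, 4 held a library whose gap to the nearest other was over 0.625 of the group's range. Chance flags about 1 in 20 groups, and these flags fall on 3 libraries. The liver library of rat 2 (egg) had 16.5% miR-486, with a gap of 0.867 of the range. The PFC library of rat 9 (casein), which also held the most miR-10b-5p of its tissue, had 0.142% miR-126a-3p (0.855 of the range) and 0.163% miR-126a-5p (0.652 of the range). The VAT library of rat 12 (egg), the one of lowest depth, had 0.0811% miR-126a-3p (0.633 of the range), from 36 counts, with an exact 95% interval of 0.0568 to 0.112%.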

How the results depend on the processing

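No setting gave a miRNA at adjusted p under 0.05 for diet in any table, and the member ratios and the interaction tests also gave none. Scaling moved the median of all miRNAs by -0.81 to 0.68 on the log2 scale between tissues, and by 0.25 in VAT and 0.12 in kidney for diet with total counts and by 0.13 in liver with DESeq2 size factors. Signs of the small diet effects turned with it. Egg over casein in VAT was 0.23 with total counts for either miR-126a arm and 0.0055 by DESeq2 for miR-126a-3p. In liver miR-126a-3p was 0.020 by DESeq2 and with its size factors, and miR-126a-5p was 0.11 by DESeq2, 0.11 with its size factors and 0.067 with total counts. Leaving out each rat gave -0.86 to 0.12 for PFC miR-126a-5p, -0.16 to 0.17 and -0.17 to 0.18 for the VAT 3p and 5p arms, -0.18 to 0.17 and -0.11 to 0.26 for the liver arms, and -0.22 to 2.40 for liver miR-486.

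Between tissues, miR-126a-5p reached the threshold for PFC over VAT with TMM (-0.96), DESeq2 size factors (-0.83) and without the libraries that stand apart (-0.79), and turned to 0.19 on the total of the shared miRNAs. For PFC over liver these were -1.13, -1.13, -0.78 and 0.21, and for PFC over kidney the last was 1.07 (called). VAT over liver, near 0, was -0.17 with TMM, -0.29 with DESeq2 size factors and -0.0049 with the replicate block. PFC over kidney for miR-126a-3p was 0.21 on the shared total. For miR-486, VAT over liver was -0.29 with the replicate block and -1.63 without the libraries that stand apart. The block changed no other call. miR-126a-3p for VAT over liver was 0.40 without those libraries. Leaving out each rat gave -0.83 to -0.25 (PFC over VAT), -0.82 to -0.27 (PFC over liver), 0.029 to 0.57 (PFC over kidney), -0.096 to 0.091 (VAT over liver) and 0.71 to 0.93 (VAT over kidney) for miR-126a-5p, -0.64 to -0.34 (PFC over kidney) for miR-126a-3p and -2.01 to -0.43 (VAT over liver) for miR-486. Calls for miR-126a-5p in PFC appeared without rat 9 for VAT and liver and without rat 7 for kidney.

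The arm ratio differed without rat 7 (-1.19, -0.84 and -0.89 for PFC minus VAT, liver and kidney). Without rats 7, 9 and 12 these were -1.20, -0.73 and -0.77, and VAT minus liver was 0.47 (exact adjusted p = 0.047). By Pearson's r, 2 correlations within tables passed without the 2 farthest rats. Leaving out each rat, 0 to 1 passed within tissues and 0 to 1 between them. By Spearman's rho, 2 passed within tissues over all rats, 4 without the 2 farthest rats, 0 with diets centred and 0 to 3 without each rat, and 0 passed between tissues in each setting. Fits with rats left out covered 8 relations within tissues and 13 between them. The causes of these shifts were not tested. No value without the 2 farthest rats was computed for relations over 6 rats. Depth limits the VAT library of rat 12. The fits without the libraries that stand apart, without rat 7 and with the column term were chosen after seeing the data.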
